A study of Mus musculus with 6 samples.

Results

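The fibrillar collagens are the collagen chains that assemble into the banded fibrils of connective tissue. The 9 genes of collagen types I, II, III, V and XI were taken by symbol from the deposited normalized table, which holds 16180 genes, and joined by gene ID to the raw count table of 51912 genes. All 9 were found, and all 9 passed the filter on low counts that left 14696 genes for testing. Soleus muscle, a slow-twitch-rich calf muscle, was sequenced from 3 *Mustn1* KO-first heterozygous mice (HET; genotype Mustn1_KO-first_het) and 3 wild-type littermates (WT), all on the C57BL6/N strain and 8 weeks old. The KO-first allele, which is carried in every cell of the body, traps the *Mustn1* transcript after its first exon in a reporter and selection cassette (lacZ and neomycin resistance). HET mice keep 1 untouched copy of *Mustn1*, and no mouse with the allele on both copies is among these samples.

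Fibrillar procollagens fold as triple helices of 3 chains, in which glycine opens each triplet of residues. Type I collagen joins *Col1a1* and *Col1a2* chains, type III holds only *Col3a1* chains, and type V joins *Col5a1* with *Col5a2* and, in some tissues, *Col5a3*. Type II (*Col2a1*) and type XI (*Col11a1*, *Col11a2* and the *Col2a1* chain) are best known from cartilage. In skeletal muscle, type I and III fibrils form much of the sheaths around fibers and fascicles and of the tendon, fibroblast-lineage cells make most of them, and type V chains take part in starting a fibril and setting its width. The propeptides at both ends are cut off outside the cell before the fibrils form, and lysyl oxidases then cross-link them.

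The repeat that defines the family can be read in the transcripts. For the 6 members with the most reads per kilobase, the first 54 coding bases of the longest unbroken run of triplets that start with a glycine codon are shown, in the GENCODE M21 transcript with the longest coding part, with the glycine codon that opens each triplet in capitals.
Col1a1: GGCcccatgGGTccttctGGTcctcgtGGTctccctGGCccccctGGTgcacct
Col1a2: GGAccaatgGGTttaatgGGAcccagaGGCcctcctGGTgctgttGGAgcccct
Col3a1: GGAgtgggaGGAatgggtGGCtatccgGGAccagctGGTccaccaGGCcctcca
Col5a1: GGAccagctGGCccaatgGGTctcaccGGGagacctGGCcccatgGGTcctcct
Col5a2: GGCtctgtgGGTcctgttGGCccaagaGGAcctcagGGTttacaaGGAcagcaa
Col5a3: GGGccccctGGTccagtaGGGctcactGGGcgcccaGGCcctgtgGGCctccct
Each of these stretches crosses an exon boundary. On GRCm38 they lie at chr11:94939451-94939741 (exons 6 and 7 of *Col1a1*, plus strand), chr6:4512406-4515254 (exons 6 and 7 of *Col1a2*, plus strand) and chr1:45323762-45325377 (exons 5 and 6 of *Col3a1*, plus strand). The type V stretches lie at chr2:27964080-27965259 (exons 14 and 15 of *Col5a1*, plus strand), chr1:45423682-45426996 (exons 8 and 9 of *Col5a2*, minus strand) and chr9:20801113-20801260 (exons 14 and 15 of *Col5a3*, minus strand). In all 6 the codon GG plus any base opens each triplet of codons, and the codons between differ from chain to chain.

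The unbroken run was of nearly the same length in all 9 members, from 337 triplets in *Col5a3* to 344 in *Col3a1*, which is the main triple helix. The share of the coding sequence that it took differed more, from 55.2% of codons in *Col5a1* to 74.1% in *Col1a2*, since *Col5a1*, *Col5a3*, *Col11a1* and *Col11a2* carry long amino-terminal parts before the run. The run began at codon 97 in *Col1a2*, at codon 168 in *Col1a1* and at codon 559 in *Col5a1*. The chains also differed in how the glycines are written. GGT made up 55.9% of the glycine codons of the run in *Col1a1* and 51.6% in *Col1a2*, and 25.2% in *Col5a3* and 21.3% in *Col11a2*. Despite the repeat, exact 50-base words of the transcript were shared with transcripts of other genes in only 2 members, *Col3a1* with 1.67% of its words (shared with *Gm47302*) and *Col5a1* with 1.44% (shared with *2810430I11Rik* and *Gm13372*). In the other 7 no 50-base word, the length of a read in this study, was found in another gene on either strand.

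The labels were checked before the members were compared. *Mustn1* itself had 471, 452 and 574 reads in the 3 HET libraries, all below the 691, 817 and 1504 reads of the WT libraries (log2 fold change −0.96, SE 0.15, adjusted p = 0.0452 in edgeR's quasi-likelihood test). The mice are labelled male, but *Xist* had 3858 to 9154 reads per library and 4 Y-linked genes had at most 12 reads together, so the labelled sex goes against the reads in both genotypes alike. Reads on genes numbered between 26790075 and 50368796 per library, and the markers of muscle fibers were at similar summed levels in both genotypes, between 95847 and 110668 normalized counts (CPM, reads scaled to a common library size) in HET and between 101804 and 105153 in WT mice.

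All 9 fibrillar collagens had higher means in HET than in WT soleus, with log2 fold changes between 0.64 and 1.23 and a median of 0.95, while the median over all genes tested was −0.02 and 45.6% of those genes lay above 0. No member passed the adjusted p threshold of 0.05 in edgeR's quasi-likelihood test, in which 0.143% of all genes were called higher in HET. At an unadjusted p under 0.05, 9 of 9 members were higher, against 5.76% of all genes. In 8 of 9, every HET mouse lay above every WT mouse, against 7.55% of all genes, with *Col2a1* as the exception. DESeq2's Wald test called 5 of 9 members higher (*Col3a1*, *Col5a1*, *Col5a2*, *Col5a3* and *Col11a2*), with 1.48% of all genes called, and limma-voom called 0 of 9, with 0.0204% of all genes called. The call thus turned on the tool, while the sign of the difference was the same in all 9 members with each of the 3 tools. Within edgeR it also turned on the settings, with 0 to 9 members called in the fits given at the end. In bulk RNA, more cells of a type that makes these chains and more RNA per cell cannot be told apart.

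**Figure D1:**
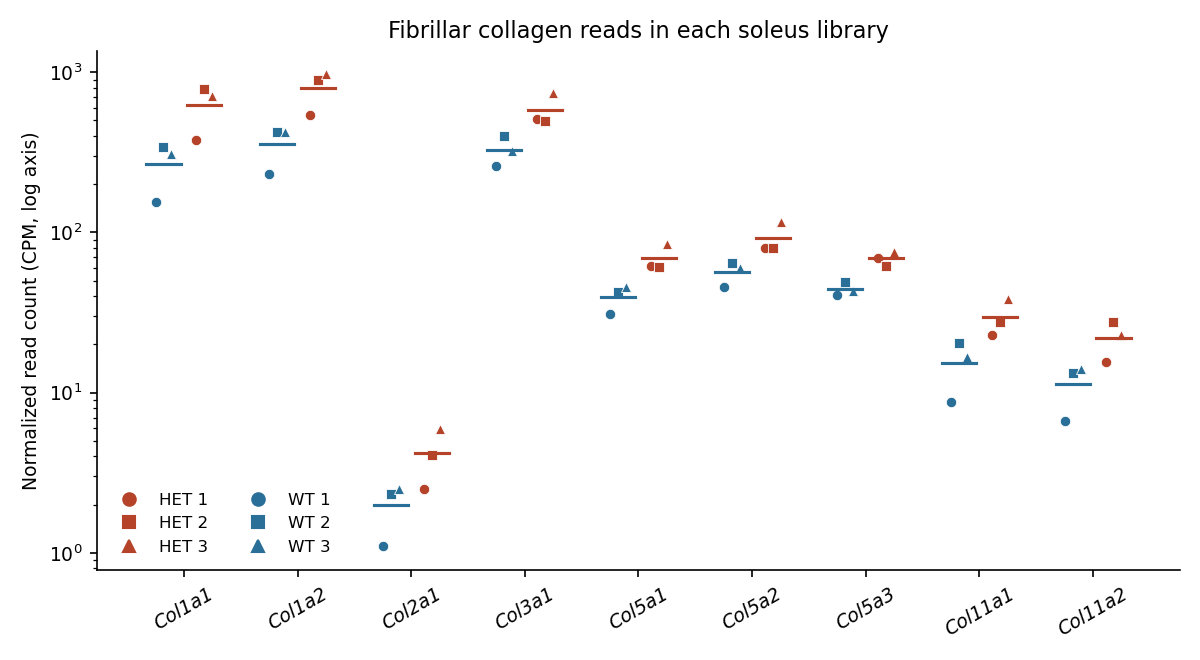
Normalized read count (CPM, log axis) of each fibrillar collagen in each of the 3 WT and 3 HET mice, with the mean of each genotype as a bar. The HET points lie above the WT points in 8 of the 9 genes, and for *Col2a1* the lowest HET mouse (2.51) is level with the highest WT mouse (2.51).

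Type I collagen showed the largest differences. *Col1a1* (ENSMUSG00000001506, chromosome 11, 94936224 to 94953042), the main chain of the most abundant collagen, had normalized counts of 380, 782 and 715 CPM in HET mice 1 to 3 and 154, 339 and 308 CPM in WT mice 1 to 3. HET mouse 1 stood only 1.12 times above the highest WT mouse, and WT mouse 1 stood below the rest. The HET mean was 626 ± 215 CPM and the WT mean 267 ± 99.2 CPM (SD, n = 3 each), which gave a log2 fold change of 1.23 (SE 0.41, adjusted p = 0.549).

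*Col1a2* (ENSMUSG00000029661, chromosome 6, 4504814 to 4541544), the second chain of type I, was at 539, 892 and 970 CPM in HET and 230, 423 and 421 CPM in WT mice. The order of the mice was close to that of *Col1a1*, with mouse 1 lowest in each genotype. The log2 fold change was 1.16 (SE 0.32, adjusted p = 0.354), with 800 ± 230 CPM in HET against 358 ± 111 CPM in WT mice (SD, n = 3 each). Both type I genes thus had a mean in HET mice more than 2 times that in WT mice (2.34-fold and 2.23-fold in the fit).

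*Col3a1* (ENSMUSG00000026043, chromosome 1, 45311538 to 45349706), the only chain of type III collagen, was at 511, 495 and 742 CPM in HET and 260, 401 and 320 CPM in WT mice. Here HET mice 1 and 2 were close together and HET mouse 3 stood above them. The HET mean of 583 ± 139 CPM and the WT mean of 327 ± 70.8 CPM (SD, n = 3 each) gave a log2 fold change of 0.83 (SE 0.20, adjusted p = 0.212, and 0.00118 in DESeq2).

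The 3 type V chains had smaller differences and less spread. *Col5a1* (ENSMUSG00000026837, chromosome 2, 27886425 to 28039514), the chain that type V molecules cannot do without, was at 61.5, 61.0 and 84.4 CPM in HET and 31.1, 42.6 and 45.4 CPM in WT mice. The lowest HET mouse was 1.34 times the highest WT mouse, the widest such gap among the 9 members. Its log2 fold change was 0.80 (SE 0.17, adjusted p = 0.131, and 0.00101 in DESeq2). *Col5a2* (ENSMUSG00000026042, chromosome 1, 45374321 to 45503282), its usual partner, was at 79.6, 80.3 and 117 CPM in HET and 45.4, 64.7 and 59.8 CPM in WT mice. As with *Col3a1* and *Col5a1*, HET mouse 3 stood above the other HET mice. Its log2 fold change was 0.71 (SE 0.18, adjusted p = 0.237, and 0.00812 in DESeq2).

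*Col5a3* (ENSMUSG00000004098, chromosome 9, 20770050 to 20815067), the third type V chain, was at 69.7, 61.6 and 75.5 CPM in HET and 40.8, 49.4 and 42.8 CPM in WT mice. The mice of a genotype lay closest together for this gene, with a coefficient of variation of 10.1% in both HET and WT mice, where *Col1a1* had 34.4% and 37.1%. Its log2 fold change of 0.64 (SE 0.11) was the smallest of the 9, and its adjusted p of 0.0655 in edgeR was the lowest (0.000174 in DESeq2). The size of the difference and the strength of the test thus ran in opposite directions at the ends of the family.

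The chains best known from cartilage were read at low levels. *Col11a1* (ENSMUSG00000027966, chromosome 3, 114030540 to 114220718) was at 23.0, 27.6 and 38.3 CPM in HET and 8.76, 20.6 and 16.6 CPM in WT mice (log2 fold change 0.95, SE 0.33, adjusted p = 0.483). *Col11a2* (ENSMUSG00000024330, chromosome 17, 34039437 to 34066685) was at 15.6, 27.5 and 22.9 CPM in HET and 6.66, 13.3 and 14.0 CPM in WT mice (log2 fold change 0.95, SE 0.31, adjusted p = 0.431, and 0.0185 in DESeq2). In both genes the lowest HET mouse was 1.12 times the highest WT mouse, a narrow gap. *Col2a1* (ENSMUSG00000022483, chromosome 15, 97975602 to 98004695), the type II chain, was at 2.51, 4.10 and 5.92 CPM in HET and 1.10, 2.34 and 2.51 CPM in WT mice, and HET mouse 1 and WT mouse 3 did not separate. Its log2 fold change was 1.06 (SE 0.37, adjusted p = 0.434), and its fewest reads in a library were 33, so counting error weighs more here than in any other member.

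Mice of a genotype kept part of their order across the members. WT mouse 1 was the lowest WT mouse for 9 of 9 genes, and HET mouse 3 was the highest HET mouse for 7 of 9, with HET mouse 2 highest for *Col1a1* and *Col11a2*. Within HET the lowest mouse was number 1 for 6 genes and number 2 for *Col3a1*, *Col5a1* and *Col5a3*. HET mouse 2 was thus at opposite ends of its genotype for different chains. The highest WT mouse was number 2 for 6 genes and number 3 for 3. Over the 6 mice the Pearson correlation of log2 CPM between 2 members lay between 0.76 and 0.99 over the 36 pairs, with a median of 0.94. These correlations are a description over 6 libraries that hold the difference between the genotypes.

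**Figure D2:**
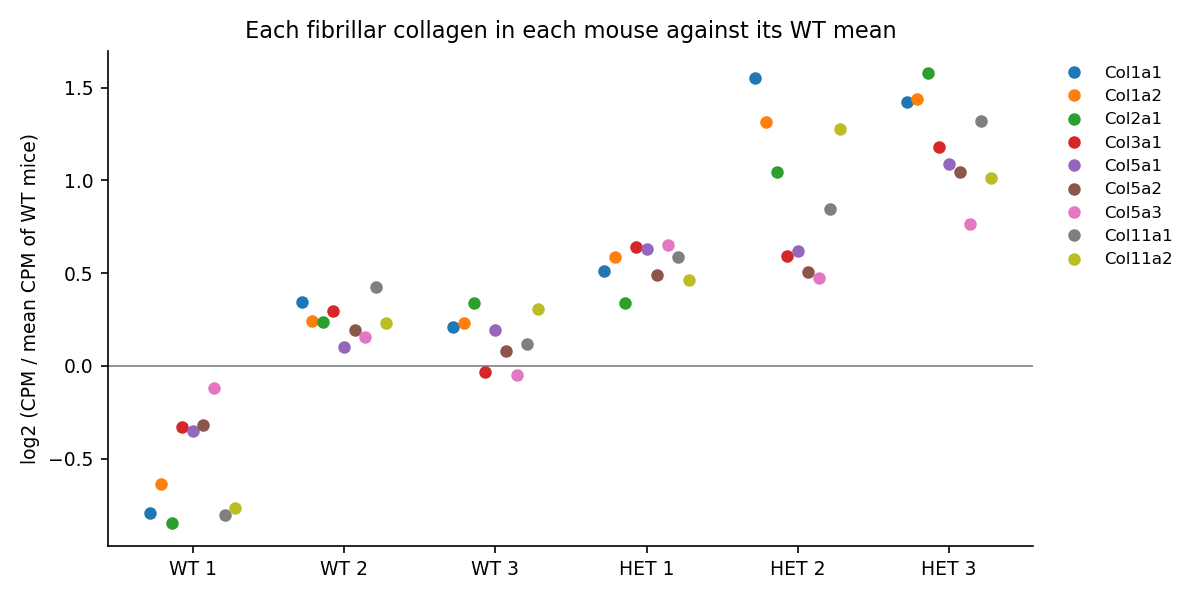
Log2 of the CPM of each fibrillar collagen in each mouse over its mean in the 3 WT mice, with 1 point per gene. WT mouse 1 lies below 0 for all 9 genes, HET mouse 1 holds all 9 genes close together, and in HET mouse 2 the type I chains and *Col11a2* stand above the type III and V chains.

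Leaving out a mouse moved the sizes but not the signs. The median over the 9 members was 0.68 without WT mouse 1 and 0.71 without HET mouse 3, and was 1.11 without HET mouse 1. *Col5a3* was the only member that passed in such a fit, at an adjusted p of 0.0427 without HET mouse 2, where 0.0922% of all genes were called higher. The GC content of the members' transcripts ran from 48.0% in *Col11a1* to 64.1% in *Col11a2*, where the median over genes tested was 50.3%, and with each library's trend on GC content removed the median log2 fold change of the members was 0.85.

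Most of the fibrillar collagen reads lay on 3 members. *Col1a1*, *Col1a2* and *Col3a1* together held between 85.0% and 89.2% of the reads on the 9 members in HET mice and between 82.8% and 85.8% in WT mice. By CPM per kilobase of all exons the mean levels over the 6 mice were 68.0 for *Col1a1*, 46.6 for *Col1a2* and 46.4 for *Col3a1*, then 8.32 for *Col5a3*, 7.76 for *Col5a2* and 6.40 for *Col5a1*. The lowest were *Col11a2* at 2.44, *Col11a1* at 1.76 and *Col2a1* at 0.51. *Col1a2* and *Col3a1* did not separate, since each was the higher of the pair in 3 of 6 mice, and *Col5a3* was above *Col5a2* in 5 of 6. The other neighbours in this order kept their place in all 6 mice.

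The order within the top and the middle depended on the length used, a comparison added after the data were seen. All annotated exons of *Col1a2* cover 12426 bases and its longest coding transcript 5348, and for *Col1a1* these are 6563 and 5930. Per kilobase of that transcript *Col1a2* led with a level of 108 CPM, *Col3a1* followed with 81.8 and *Col1a1* with 75.3, and *Col5a2* at 11.2 was above *Col5a3* at 9.25 in 6 of 6 mice. On this scale *Col11a2* (3.09) and *Col11a1* (2.93) did not separate, each being the higher in 3 mice. On either scale the type I and III chains were the top 3, the type V chains came next and *Col2a1* was last.

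Of the reads on genes, the 9 members took 0.236% ± 0.0583 in HET and 0.109% ± 0.0303 in WT mice (SD, n = 3 each), or 2.15 times as much in HET. The shares were 0.174%, 0.243% and 0.289% in HET mice 1 to 3 and 0.0750%, 0.132% and 0.121% in WT mice 1 to 3, so the genotypes did not overlap. The two-sided exact permutation test gave p = 0.1, the smallest that 3 mice against 3 allow.

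The ratio of 2 chains within a mouse asks whether the members differed in step, and needs no scaling factor. *Col1a1* to *Col1a2*, the chains of type I, stood at 1.34, 1.66 and 1.40 in reads per kilobase of exons in HET mice 1 to 3 and at 1.27, 1.52 and 1.39 in WT mice 1 to 3. The HET mean was 1.46 ± 0.172 and the WT mean 1.39 ± 0.125 (SD, n = 3 each), with p = 0.6 in a two-sided exact permutation test and an adjusted p of 0.6 over the 4 ratios. Per kilobase of the longest coding transcript the same ratio was 0.697 ± 0.0820 in HET and 0.662 ± 0.0596 in WT mice (SD, n = 3), so its level, unlike its difference between genotypes, depended on the length used.

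*Col5a1* to *Col5a2* was 0.849 ± 0.0299 in HET and 0.792 ± 0.0596 in WT mice (SD, n = 3; exact permutation p = 0.3, adjusted p = 0.533). *Col5a3* to *Col5a1* was 1.26 ± 0.149 in HET and 1.42 ± 0.232 in WT mice (SD, n = 3; exact permutation p = 0.4, adjusted p = 0.533). These 2 ratios overlapped between the genotypes. *Col3a1* to *Col1a1*, the balance of type III and type I, had the largest difference of the 4, with 0.899, 0.423 and 0.694 in HET mice 1 to 3 and 1.13, 0.792 and 0.695 in WT mice 1 to 3. HET mouse 2 had the lowest value and WT mouse 1 the highest, and the log2 difference between the genotypes was −0.41 (exact permutation p = 0.4, adjusted p = 0.533). It was −0.11 without HET mouse 2, where *Col5a3* to *Col5a1* differed more at −0.16, and −0.66 without HET mouse 1. None of the 36 ratios between 2 members separated the genotypes. With 3 mice against 3 the smallest p of these exact permutation tests is 0.1, so they do not show that the ratios were the same.

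**Figure D3:**
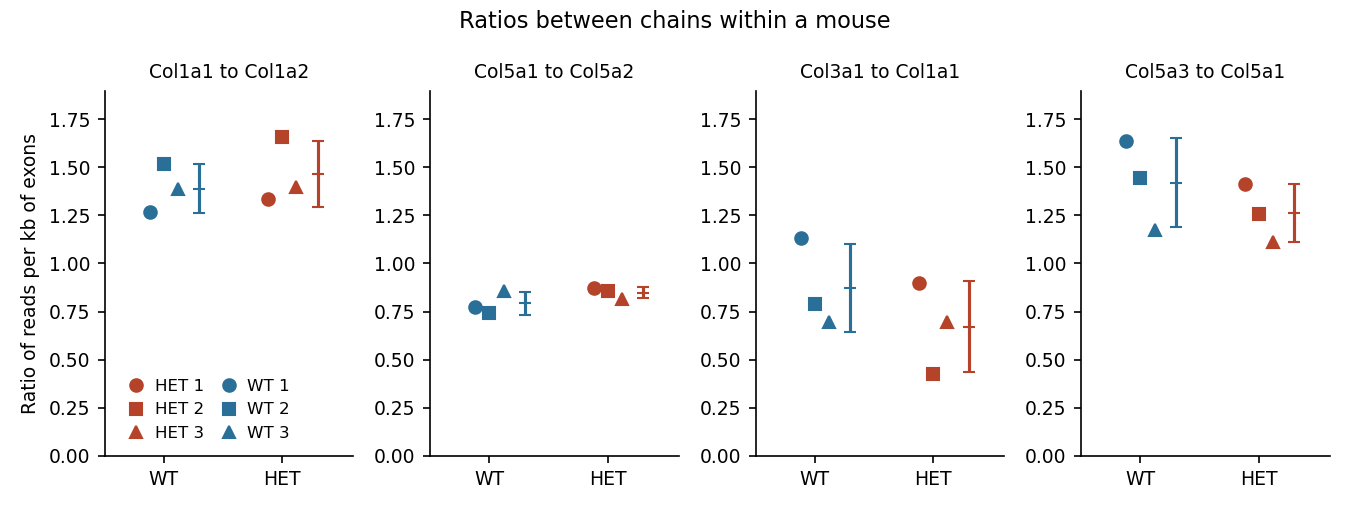
Ratio of reads per kilobase of exons between 2 fibrillar collagen chains within each mouse, for 4 pairs of chains, with the mean and SD of the 3 mice of a genotype beside the points. The genotypes overlap in all 4 panels, and the widest spread is that of *Col3a1* to *Col1a1*, from 0.423 in HET mouse 2 to 1.13 in WT mouse 1.

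The 250 bases before the RefSeq start were read for the members with an entry in the RefSeq promoter table of GRCm38.p6, which were 6 of 9 (*Col1a2*, *Col3a1*, *Col5a1*, *Col5a3*, *Col11a1* and *Col11a2*). The *Col1a2* window, from 4505368 to 4505617 on chromosome 6, lies inside the gene as the count table gives it, with 127 of its bases in an annotated exon, and the *Col11a2* window ends at 34039137, short of the start in the count table. The windows are shown for *Col3a1*, the member with the most reads per kilobase whose window holds no annotated exon, and for *Col5a3*, the member with the lowest adjusted p. Capitals mark the motifs searched, which were CCAAT or ATTGG (the CCAAT box on both strands), TATAAA (the TATA box, given strand) and GGGCGG or CCGCCC (the GC box on both strands). The *Col3a1* window is chr1:45311288-45311537 on the plus strand and the *Col5a3* window is chr9:20815068-20815317 on the minus strand, both written 5′ to 3′.
Col3a1: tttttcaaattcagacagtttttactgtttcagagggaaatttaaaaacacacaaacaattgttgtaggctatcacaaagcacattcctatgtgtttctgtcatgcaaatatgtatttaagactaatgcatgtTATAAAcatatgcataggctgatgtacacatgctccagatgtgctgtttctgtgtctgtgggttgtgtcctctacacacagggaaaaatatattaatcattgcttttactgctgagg
Col5a3: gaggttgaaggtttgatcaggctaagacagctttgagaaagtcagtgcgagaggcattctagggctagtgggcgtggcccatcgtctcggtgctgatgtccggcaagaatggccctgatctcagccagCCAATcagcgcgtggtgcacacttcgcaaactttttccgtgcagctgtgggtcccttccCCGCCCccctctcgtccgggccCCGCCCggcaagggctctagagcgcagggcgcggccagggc
The *Col3a1* window held TATAAA, 117 bases before the start, and neither of the other motifs. The *Col5a3* window held a CCAAT box 122 bases before the start and GC boxes 63 and 41 bases before it. Its GC content was 62.8%, against 35.2% in the *Col3a1* window.

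Over the 6 windows, a GC box was found in all but *Col3a1*, a CCAAT box in *Col1a2*, *Col5a3* and *Col11a1*, and TATAAA in *Col3a1* and *Col11a2*. Among all 32851 promoters of the same length in the table, 32.7% held a GC box, 33.8% a CCAAT box and 7.59% TATAAA. No motif was thus common to the 6 windows. Matches of this kind are a description of letters in a window.

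The genes that make, bind, cross-link or cut the fibrils were taken as 10 lists with 96 gene symbols, of which 86 were tested. None passed the adjusted threshold in edgeR's test in either direction. At an unadjusted p under 0.05, 43 were higher and 1 was lower in HET, where 5.76% of all genes were higher. DESeq2 called 22 higher, with 1.48% of all genes called, and limma-voom called 0, with 0.0204% of all genes called. In 38 of the 86, every HET mouse lay above every WT mouse, against 7.55% of all genes. The lists were chosen with earlier results of these data known, so these counts are a description. The median log2 fold change over the 86 genes was 0.43, between that of the 9 fibrillar collagens and that of all genes.

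Among the prolyl and lysyl hydroxylases and glycosyltransferases, which modify the chains before they fold, 13 of 14 lay above 0, with a median of 0.23. The lowest was *P4ha2*, a catalytic subunit of prolyl 4-hydroxylase, at −0.06 (SE 0.10, adjusted p = 0.953), and the highest was *P4ha3*, another such subunit, at 1.21 (SE 0.43, adjusted p = 0.442), read at only 0.63 CPM in HET and 0.261 CPM in WT mice. Among 8 genes of procollagen folding and secretion the median was 0.35 and 6 lay above 0. The range ran from *Tmem38b*, an endoplasmic reticulum cation channel, at −0.18 (SE 0.11) to *Creb3l1*, a transcription factor that acts on type I collagen genes, at 0.70 (SE 0.22, adjusted p = 0.347).

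For propeptide cleavage 7 of 8 tested genes were above 0, with a median of 0.62, from *Tll1*, a tolloid-like protease, at −0.20 (SE 0.30) to *Pcolce2*, an enhancer of procollagen C-proteinase, at 1.09 (SE 0.25, adjusted p = 0.174). All 5 lysyl oxidases lay above 0, with a median of 0.80, from *Loxl1* at 0.58 (SE 0.13, adjusted p = 0.159) to *Loxl4* at 1.13 (SE 0.52, adjusted p = 0.663). The 4 tested collagen-degrading proteases lay between 0.61 for *Fap* (SE 0.21) and 0.86 for *Ctsk*, which encodes cathepsin K (SE 0.16, adjusted p = 0.0785). Genes for cross-linking and for degradation thus had medians of 0.80 and 0.74, both under the 0.95 of the fibrillar collagens themselves.

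The 9 small leucine-rich proteoglycans, which bind fibrils and affect their width, all lay above 0, with a median of 0.68, from *Aspn* (asporin) at 0.22 (SE 0.24) to *Fmod* (fibromodulin) at 1.73 (SE 0.58, adjusted p = 0.566). *Fmod* was at 117, 235 and 198 CPM in HET and 21.8, 60.9 and 82.5 CPM in WT mice, with mouse 1 lowest in each genotype as for type I collagen. Among 6 tested fibril-associated collagens the median was 0.81, and 4 lay above 0, up to 1.27 for *Col14a1* (SE 0.41, adjusted p = 0.450). The lowest was *Col9a2*, a cartilage chain, at −0.45 (SE 0.43, adjusted p = 0.892). The other fibril-forming chains, *Col24a1* at 0.48 (SE 0.16, adjusted p = 0.385) and *Col27a1* at 0.34 (SE 0.26, adjusted p = 0.864), had smaller log2 fold changes than every one of the 9 members.

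Of 9 tested receptors for fibrillar collagen, 8 lay above 0 with a median of 0.44, which was 0.16 over the genes with at least 10 reads in every library and 0.28 without HET mouse 3. They ran from *Itga1*, an integrin subunit for collagen, at −0.11 (SE 0.12, adjusted p = 0.904) to *Itga2*, another one, at 1.22 (SE 0.40, adjusted p = 0.385), which was read at under 1 CPM. Among 21 genes that regulate fibrillar collagen transcription the median was 0.05, near that of all genes, and 13 lay above 0. They ran from *Sox6* at −0.24 (SE 0.10, adjusted p = 0.586) to *Mkx*, a tendon transcription factor, at 0.91 (SE 0.28, adjusted p = 0.323).

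**Figure D4:**
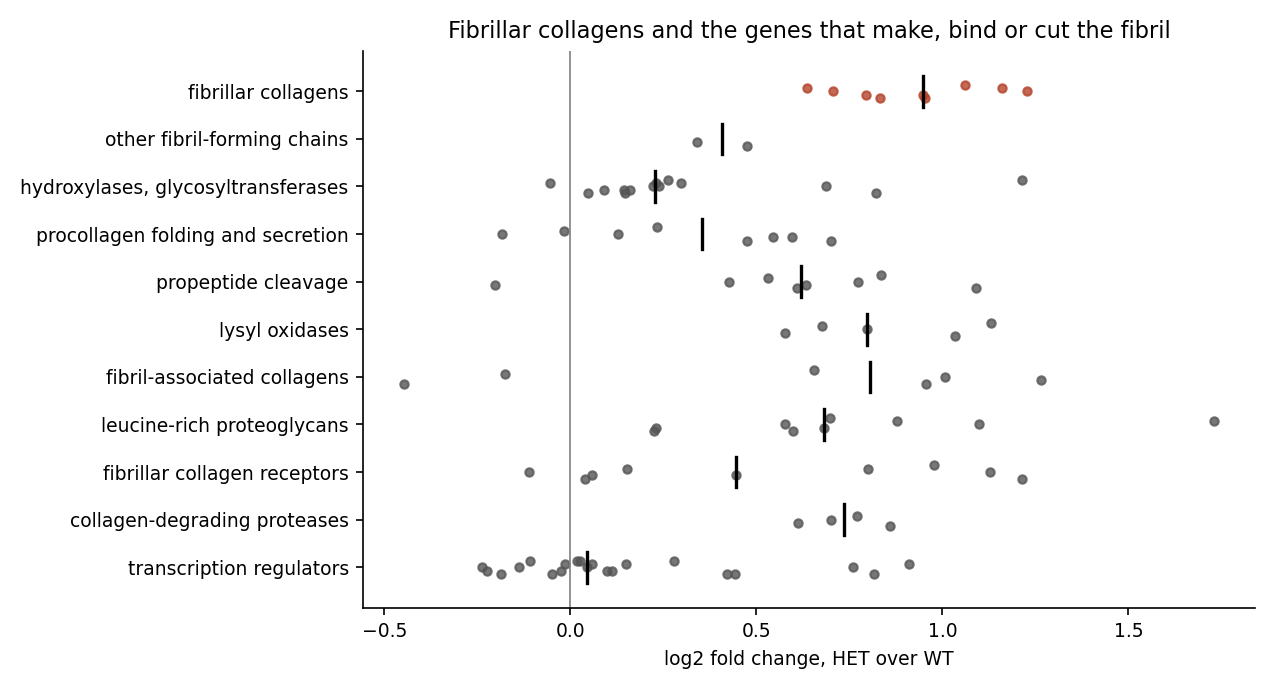
Log2 fold change, HET over WT, of each tested gene, with 1 row for the 9 fibrillar collagens and 1 for each list of genes that act on them, and a black line at the median of each. The collagens (median 0.95) lie to the right of 0 in full, as do the lysyl oxidases, the leucine-rich proteoglycans and the tested proteases, while the transcription regulators spread around a median of 0.05.

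Markers of several other cell types lay higher in HET mice too. For tenocytes, the cells of tendon, 10 of 10 tested markers lay above 0 with a median of 1.16, none was called, and their summed level was between 408 and 732 CPM in HET and between 132 and 323 CPM in WT mice, 2.45 times as high by the means. Mouse 1 had the lowest sum in each genotype, as for *Col1a1* and *Col1a2*, and the same held for the fibroblast and progenitor sum given below. The highest HET sum was that of mouse 2 in both lists. It was 732 CPM against 662 CPM in HET mouse 3 for tenocytes, and 1146 against 1144 CPM for fibroblasts and progenitors. HET mouse 3, in contrast, was the highest HET mouse for 7 of the 9 collagens. *Fmod*, *Kera*, *Mkx* and *Scx* of this list also stand in the lists above. For fibroblasts and fibro-adipogenic progenitors, 14 of 14 tested markers lay above 0 with a median of 0.82, the sum was between 1049 and 1146 CPM in HET and between 522 and 872 CPM in WT mice, and *Pi16* was called higher (log2 fold change 1.06, SE 0.15, adjusted p = 0.0452).

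Macrophage markers lay above 0 in 10 of 10 genes, with a median of 1.40 and sums between 86.1 and 124 CPM in HET and between 49.3 and 55.0 CPM in WT mice. *Adgre1*, *Csf1r*, *C1qa*, *C1qb* and *Lyz2* of this list were called higher. HET mouse 2 had the lowest HET sum of macrophage markers and HET mouse 3 the highest, as for *Col3a1*, *Col5a1* and *Col5a3*. Adipocyte markers lay above 0 in 6 of 6 genes, but their sums, between 73.2 and 229 CPM in HET and between 25.1 and 102 CPM in WT mice, overlapped. The part of these cell types in the collagen values was not tested.

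For 5 further lists the medians were −0.06 for muscle fiber and for endothelial markers, 0.08 for vascular smooth muscle, −0.03 for pericytes and 0.02 for Schwann cells. The summed levels overlapped between the genotypes in all of these except pericytes, whose sums were between 971 and 1139 CPM in HET and between 1162 and 1275 CPM in WT mice. Most of the pericyte sum is *Rgs5*, with means of 570 CPM in HET and 715 CPM in WT mice. Only *Rgs5* of the 6 pericyte markers had every HET mouse below every WT mouse. Of 8 cartilage markers only *Sox9* and *Matn3* had enough reads to be tested, and the sums, most of which is *Sox9* (log2 fold change −0.02), overlapped, reaching 16.0 CPM in HET and 16.5 CPM in WT mice. *Matn3* (matrilin 3) lay at a log2 fold change of 1.73 (SE 0.49, adjusted p = 0.267), with every HET mouse above every WT mouse. The cartilage markers with too few reads to be tested went both ways. *Acan* (aggrecan), *Hapln1* and *Col10a1* had higher means in HET, and *Matn1*, *Cnmd* and *Col9a1* had lower means. *Acan* had 6, 7 and 21 reads in HET and 2, 2 and 0 reads in WT mice. *Col9a1* had 3, 1 and 1 reads in HET and 4, 8 and 4 reads in WT mice. Of 5 bone markers, *Ibsp* (bone sialoprotein) and *Phex* were tested, and the sum was 10.3 CPM in HET mouse 3 against 1.02 and 1.64 CPM in the other HET mice and between 0.532 and 0.870 CPM in WT mice. *Ibsp* alone had 12, 23 and 408 reads in HET and 4, 0 and 0 reads in WT mice, with 9.30 CPM in HET mouse 3. The bone sums thus did not overlap between the genotypes, but rest on few reads outside HET mouse 3. The median log2 fold change of 0.86 for cartilage rests on 2 genes, and *Phex* was at 0.36. The part of cartilage and of bone in the collagen values was not tested. No listed gene was at 0 reads in all 6 libraries, and apart from *Pi16* and the 5 macrophage markers no listed marker was called. HET mouse 3 was the highest HET mouse for 7 of the 9 collagens, and HET mouse 2 was for *Col1a1* and *Col11a2*. The median over the 9 was 0.71 without HET mouse 3 and 0.68 without WT mouse 1. A link between these collagen values and the bone markers was not tested.

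**Figure D5:**
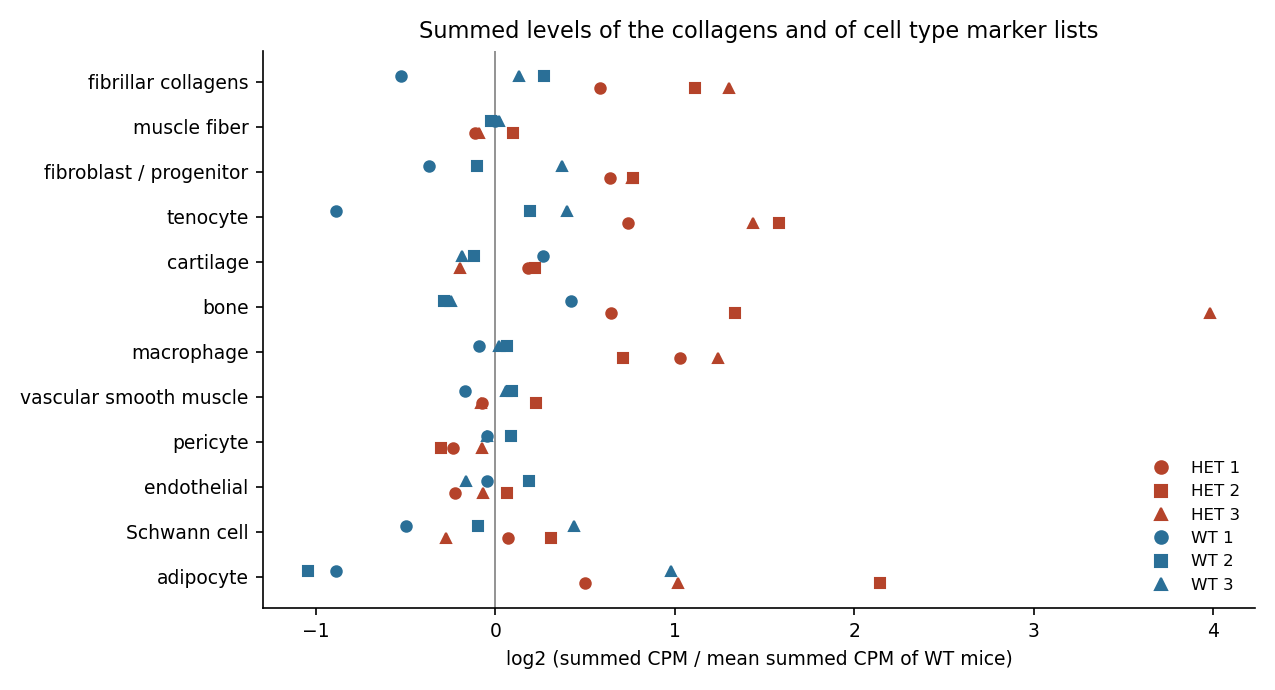
Log2 of the summed CPM of the 9 fibrillar collagens and of each list of cell type markers in each mouse, over the mean of the 3 WT mice. The collagen, fibroblast, tenocyte, macrophage and bone sums separate the genotypes upward, and the bone sum of HET mouse 3 (10.3 CPM) stands apart. The muscle fiber, endothelial and smooth muscle sums lie close to 0.

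The genes most like the main collagens over the 6 mice were listed by the Pearson correlation of log2 CPM, leaving out the members. For *Col1a1* these were *Cyba*, *Scpep1*, *Lasp1*, *Cenpt* and *Cpxm2*, with r between 0.993 and 0.998, and their log2 fold changes ran from 0.27 for *Lasp1* to 0.87 for *Cpxm2*. For *Col3a1* they were *Lcp2*, *Glipr2*, *Pcdh7*, *Pqlc3* and *Tnc*, with r between 0.994 and 0.997, and log2 fold changes from 0.70 for *Pcdh7* to 1.59 for *Lcp2*. The 2 lists shared no gene, and none of the 10 genes was called. With 6 libraries and 14687 other genes to choose from, correlations of this size are a description of these mice.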

How the data were processed

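RNA-seq of soleus from 3 HET and 3 WT mice was analysed, with 1 library of single reads per mouse. The authors aligned reads to GRCm38.p6 with STAR 2.7.3a and made the deposited counts with featureCounts 2.0.3, per the labels and file headers, in reads per gene without normalization. For the deposited normalized signal the authors divided each count by the DESeq2 size factor of its library, and the authors' table of DESeq2 fold changes and p-values was not used. No column of values lacked a sample (0 unmatched). The labels do not say whether libraries were made in batches.

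Counts were tested with edgeR 4.0.16 (robust quasi-likelihood, filterByExpr with a minimum count of 10, TMM factors, genotype as the only term, all 6 mice) in R 4.3.3, with two-sided p-values adjusted by Benjamini-Hochberg over 14696 genes at a threshold of 0.05. Normalized counts (CPM) are reads scaled to a common library size with the TMM factors, and errors are SD over mice. The SE of a log2 fold change is its size over the square root of F. The common biological coefficient of variation was 0.143. Symbols and transcripts came from GENCODE M21. DESeq2 1.42.0 and limma 3.58.1 served as alternatives, and the steps were tested on simulated data. Between mice of a genotype the chi-square per gene was 16.1 to 46.8, so no library was counted as a copy of another. Depth, from 26790075 to 50368796 reads on genes, leaves at least 33 reads on every member in every library.

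The members and lists were chosen with earlier results of these data known. Genes named are all members, the lowest and highest tested gene of each list acting on the fibril and any past the threshold, the 5 genes most correlated with *Col1a1* and with *Col3a1*, and label checks. Marker genes named beyond this, those called included, were chosen after their values were seen. *Col21a1* and the older symbol *Ctgf* were not matched, and the gene of the latter was tested under its symbol *Ccn2*.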

Additional observations from a re-analysis of the deposited data

How the results depend on the processing

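All 171 log2 fold changes of the 9 members under 19 alternatives across genes were above 0, and 143 stayed on the same side of the threshold. Calls changed as follows, with log2 fold changes in brackets. Without a scaling factor 1 member passed, *Col5a3* (0.71), with 27 genes (0.184% of all genes) higher overall. Without the filter on low counts 29081 genes were tested, with 386 (1.33% of these genes) higher and 18 lower. In that fit 5 members passed, *Col2a1* (1.07), *Col3a1* (0.84), *Col5a1* (0.80), *Col5a2* (0.71) and *Col5a3* (0.65), and 28 list genes. DESeq2 called 5, *Col3a1* (0.84), *Col5a1* (0.80), *Col5a2* (0.71), *Col5a3* (0.64) and *Col11a2* (0.96), and 22 list genes, with 218 higher (1.48% of all genes) and 8 lower. limma-voom called 3 genes higher and 0 lower, the non-robust fit 6 and 0, and the fit with each library's GC trend removed 8 higher. The test as reported called 21 higher and 1 lower, with 0 list genes and 0 members.

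Replicate numbers are shared by the genotypes, but same-numbered mice deviated together weakly or not at all (correlations 0.20, −0.0058 and −0.035 for numbers 1 to 3). The 0.20 of number 1 was the highest between any HET and any WT mouse, while HET mouse 2 correlated best with WT mouse 3 (0.13). The numbers were not taken as pairs. With the replicate number as a block, 114 genes (0.776% of all genes) were higher and 2 lower, with 14 list genes and 4 members, *Col1a1* (1.24), *Col1a2* (1.17), *Col5a1* (0.80) and *Col11a2* (0.99). With the block and the length trend removed these were 140 (0.953% of all genes) and 2, with 18 list genes and 9 members (1.24 for *Col1a1*, 1.18 for *Col1a2*, 1.08 for *Col2a1*, 0.83 for *Col3a1*, 0.80 for *Col5a1*, 0.70 for *Col5a2*, 0.64 for *Col5a3*, 1.02 for *Col11a1* and 0.98 for *Col11a2*). With the block and the GC trend removed they were 96 (0.654% of all genes) and 2, with 13 list genes and 3 members, *Col1a1* (1.17), *Col1a2* (1.14) and *Col11a2* (0.89). The cause of these changes was not tested. Paired by number, the mean difference of the log2 share of reads on the members was 1.12, and the log2 of the ratio of the mean shares was 1.11. Pairing leaves a mean difference unchanged by construction, in the share as in the ratios between chains. The smallest p that the exact sign-flip test of 3 pairs can give is 0.25.

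Leaving out each mouse in turn gave 0 to 77 genes higher (77 without WT mouse 3) and 0 to 6 lower, 0 to 6 list genes, and 0 to 1 members. *Col5a3* passed without HET mouse 2, where 14 genes (0.0922% of all genes) were higher. The median log2 fold change of the members ranged from 0.68 to 1.11, and that of *Col5a3* from 0.57 to 0.72. The log2 difference of *Col1a1* to *Col1a2* ranged from −0.022 to 0.14 and was below 0 only without HET mouse 2, at −0.022. The share of reads on the members stayed between 0.90 and 1.28 on the log2 scale. With each mouse a separate sample, p-values measure the spread between these mice, of which 3 a genotype is the limit for all members, and reads as well for *Col2a1*.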
